A study of Mus musculus with 27 samples.

Results

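The sialyltransferase genes described here are 10 of the 55483 genes in the deposited count table, found by symbol: St3gal1, St3gal2, St3gal3, St3gal4, St3gal5, St3gal6, St6gal1, St6galnac4, St6galnac6 and St8sia4. St3gal4 was chosen by its measured ratio of RNA recovered with an antibody to HuR over total RNA, so that ratio is given as a description, with no test. The treatment of that choice is not named, so tests of St3gal4 between treatments use libraries that took part in its choice. All 10 passed the filter on low counts. The table also holds the other 10 mouse sialyltransferase genes (St6gal2, St6galnac1, St6galnac2, St6galnac3, St6galnac5, St8sia1, St8sia2, St8sia3, St8sia5 and St8sia6), and 0 of these passed it.

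The cells were RAW264.7, a mouse macrophage line that grows in culture. They were harvested after 6 h in DMSO (the solvent, n = 4), in LPS at 1 µg/ml with DMSO (n = 4), or in LPS at 1 µg/ml with TM7nox at 10 µM (n = 4), with about 30 M cells per sample. LPS is a lipopolysaccharide of bacterial walls that activates macrophages, and TM7nox is a tanshinone mimic, a class of small molecules made to interfere with the binding of HuR to RNA. Each treatment has 4 libraries of total RNA and 4 of RNA immunoprecipitated with anti-HuR (RIP). Control IgG precipitates have 1 library per treatment, from replicate 3. The labels do not say that replicates were separate cultures, so p-values measure only the spread between these samples.

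Total RNA libraries held 2.73 to 28.3 M counts, RIP libraries 19.8 to 41.4 M and IgG libraries 8.87 to 24.5 M. The shallowest was RNA DMSO replicate 1. Levels are counts scaled to a library of 1 M (CPM) on 1 scale over all libraries. All 8 macrophage markers examined (Adgre1, Csf1r, Lyz2, Cd68, Itgam, Cd14, Spi1 and Ptprc) were detected in total RNA, with a summed level of 3440 to 6791 CPM per library. The 3 markers each of T cells, B cells, epithelial cells and fibroblasts each stayed under 1 CPM in every RNA library, with Epcam, Krt8 and Cd2 at 0. Of the 3 neutrophil markers Ly6g and S100a9 were at 0, and S100a8 brought their sum to at most 0.103 CPM in DMSO, 1.53 to 3.21 in LPS and at most 0.477 in LPS+TM7nox. Elavl1, the target of the antibody, lay at 74.1 to 127 CPM in the RNA libraries. Fewer cells with an RNA and less of it per cell cannot be told apart in these bulk samples.

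Sialyltransferases work in the Golgi and move sialic acid from its activated form, CMP-sialic acid, to the ends of glycan chains. The ST3Gal and ST6Gal enzymes attach it to galactose in different linkages, the ST6GalNAc enzymes to N-acetylgalactosamine, and the ST8Sia enzymes to a sialic acid already in place. In macrophages and other leukocytes the sialic acid cap is read by siglecs, lectins that mostly dampen activation, and takes part in the ligands of selectins. HuR, encoded by Elavl1, is an RNA-binding protein that contacts U-rich and AU-rich stretches, mostly in introns and 3′ untranslated regions (3′ UTRs) of mRNAs.

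Such stretches in the members' 3′ UTRs are shown because the RIP libraries report recovery with HuR. The 3′ UTRs of the canonical GENCODE M39 transcripts (GRCm39) were searched on the transcript's strand for the pentamer ATTTA, for its extension TATTTAT, for the shifted form TTTATTT, and for the run TTTTTTT. Overlapping matches were counted, and the first motif lies inside the second. The St3gal4 3′ UTR (chromosome 9, minus strand) is 857 bases long and 30.0% U, near the median of 29.3% over 20399 genes. It holds 3 overlapping matches of TTTTTTT in 1 run, 3 of ATTTA, and 0 of the other motifs. Among the 1175 3′ UTRs of similar length, 35.0% hold the run and 67.9% hold the pentamer, and St3gal4 stands at the 86.9th and 87.0th percentile of the counts. St6gal1 and St6galnac6 had the next highest recovery. St6gal1 holds 2 matches of TTTATTT (82.0th percentile, in 63.0% of 3′ UTRs of similar length), 1 of the pentamer (17.4th percentile, in 94.9%) and 0 of the others. St6galnac6 holds 4 matches of TTTTTTT (82.5th percentile, in 45.2%), 2 of the pentamer (58.8th percentile) and 0 of the others. St6galnac4, the member with the lowest recovery, holds 3 of the pentamer (56.7th percentile, in 90.9%) and 0 of the longer motifs, which 40.8% to 58.3% of similar 3′ UTRs hold. St8sia4 and St3gal6 have the longest 3′ UTRs, at 4000 and 4572 bases, and hold each of the longer motifs. Each such motif, taken singly, is in 60.2% to 85.7% of 3′ UTRs of their lengths. In the sequences, T stands for U of the RNA and capitals mark the matched stretch or motif.
St3gal4, chr9:34957873-34957902 (-), bases 838 to 846 of the 3′ UTR: ccattaaaataTTTTTTTTTctaaaatgga
St3gal4, chr9:34958069-34958098 (-), bases 644 to 648: actttttaataaaATTTAcatgtgattggc
St6gal1, chr16:23177569-23177598 (+), bases 958 to 969: tggggctctTTTATTTTATTTtattgtttt
St6galnac6, chr2:32509666-32509695 (+), bases 135 to 144: ttgatgagggTTTTTTTTTTcctccagcca
St3gal1, chr15:66974773-66974802 (-), bases 3715 to 3723: ctcggctccatTTTATTTATtgttgaatat
St3gal5, chr6:72130832-72130861 (+), bases 189 to 197: cctcttcgtccTATTTATTTgaagtcagtg
St3gal1 and St3gal5 are shown as members that hold TATTTAT. These matches describe letters and were not tested as binding sites.

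Per kilobase of canonical transcript, St3gal5 was the most abundant member in total RNA in each treatment, with means in CPM per kb of 50.5 ± 9.27 (DMSO), 28.9 ± 8.10 (LPS) and 16.7 ± 5.80 (LPS+TM7nox, SD, n = 4). In the last of these its range overlapped that of St6galnac4, at 13.9 ± 1.86. In DMSO, St8sia4 followed at 13.1 ± 1.22 CPM per kb (SD, n = 4), with no library in common range with the genes on either side. St6galnac4 (7.40 ± 1.21) and St6galnac6 (6.89 ± 0.981) came next and overlapped each other (SD, n = 4). Then came St3gal4, St3gal6, St3gal3, St3gal1, St3gal2 and St6gal1, at means of 3.71, 3.29, 3.10, 2.74, 1.75 and 0.958 CPM per kb, each overlapping the next. In LPS the order changed: St6galnac4 (13.4 ± 1.57) and St3gal1 (12.1 ± 0.986) overlapped each other in the 2nd and 3rd places, and St8sia4 (2.996 ± 0.214) stood in the 8th (CPM per kb, SD, n = 4). St3gal4 (7.21 ± 1.29) was the 4th in LPS and the 7th in LPS+TM7nox (2.34 ± 0.342), where its range overlapped those of both neighbours. In RIP, St3gal4 was highest in every treatment, with means in CPM per kb of 282 ± 3.83 (DMSO), 548 ± 125 (LPS) and 227 ± 76.7 (LPS+TM7nox, SD, n = 4), and its libraries did not overlap those of any other member.

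**Figure D1:**
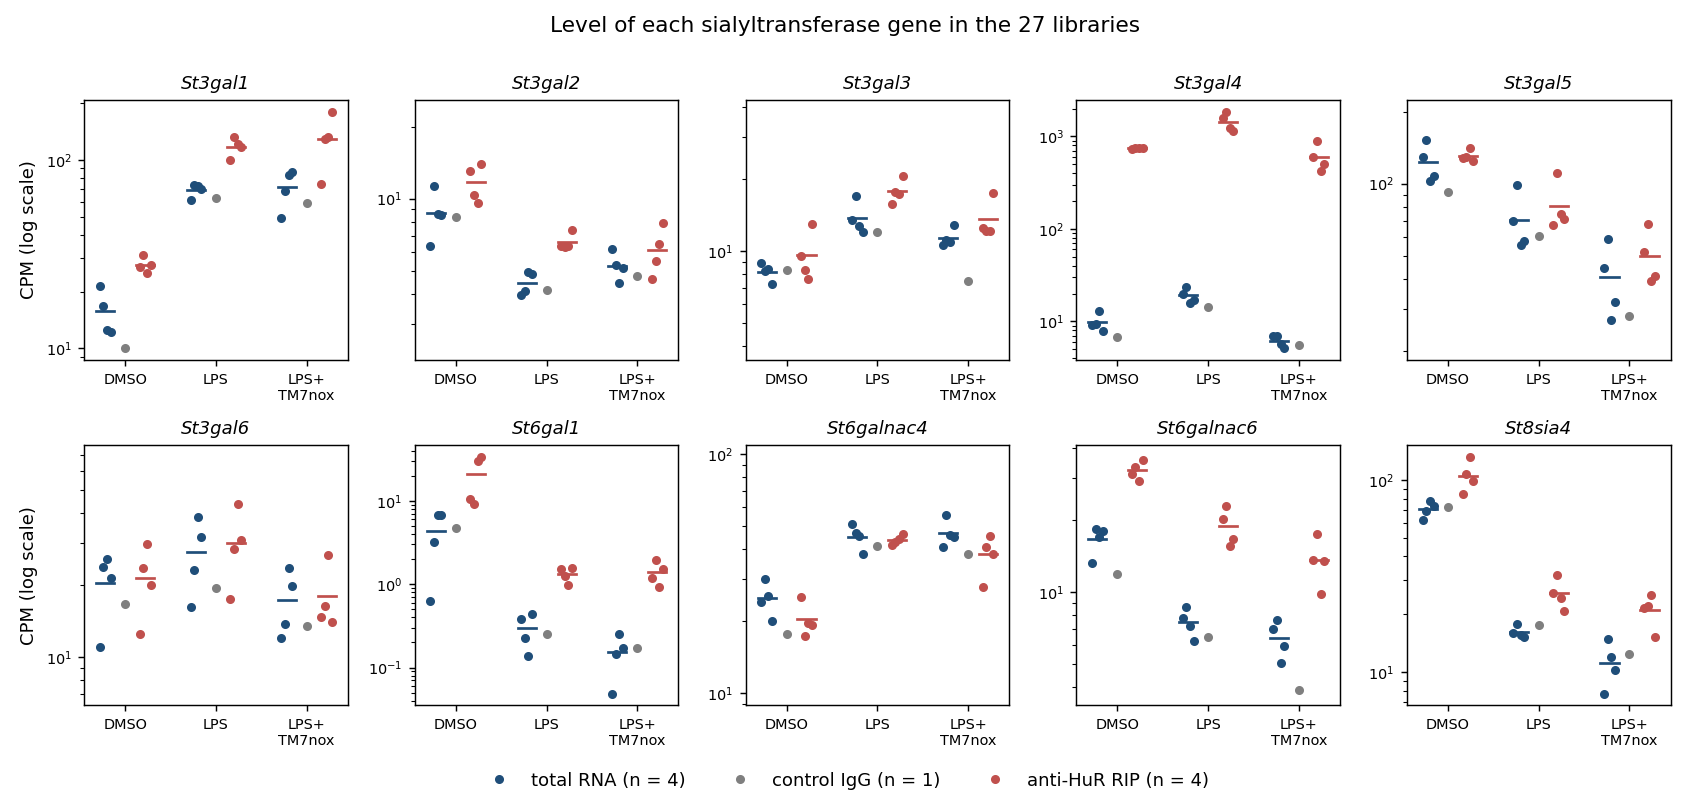
Level of each of the 10 genes in CPM (log scale, with its own range in each panel) in the 27 libraries by treatment, with total RNA in blue, control IgG in grey and anti-HuR RIP in red. Each point is 1 library and the horizontal lines are means of 4. St3gal4 shows RIP points at 419 to 1860 CPM far above its RNA points at 5.14 to 23.6 CPM, while for the other genes the colours lie much closer together.

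St3gal4, which sialylates terminal galactose on glycoproteins and with St3gal6 contributes to selectin ligands of leukocytes, was recovered with anti-HuR far above its level in total RNA. The gene lies at chr9:34957872-35034889 on the minus strand. In DMSO, RIP replicates 1 to 4 held 735, 759, 750.0 and 744 CPM of St3gal4 and the RNA libraries 9.11, 9.40, 12.8 and 7.92 CPM. The RIP over RNA ratio of same-numbered libraries was 80.7, 80.8, 58.4 and 94.0, so no pair came near equality. In LPS the 4 ratios were 79.6, 78.8, 77.5 and 66.6, and in LPS+TM7nox they were 87.5, 126, 72.8 and 97.0. The log2 ratio from the fit of 24 libraries was 6.35 (SE 0.266) in DMSO, 6.26 (SE 0.263) in LPS and 6.58 (SE 0.269) in LPS+TM7nox. Among the 14311 genes of that fit St3gal4 ranked 34th, 34th and 47th by this ratio. St3gal4 made up 58.4% to 84.2% of the 10 genes' counts in RIP libraries against 2.31% to 7.62% in RNA libraries. These values chose the gene and carry no test.

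In control IgG, St3gal4 lay at or below its level in total RNA. In replicate 3, St3gal4 stood at 750.0 CPM in RIP, 6.72 in IgG and 12.8 in RNA in DMSO. The same levels were 1235, 14.5 and 15.9 CPM in LPS, and 419, 5.59 and 5.76 CPM in LPS+TM7nox. The RIP over IgG ratio was 112 (95% interval 98.7 to 126), 85.3 (77.7 to 93.6) and 75.0 (58.8 to 95.7) in these treatments. The intervals are from Poisson counting and cover counting error only. These ratios use the RIP libraries that chose St3gal4, so they too are a description. With 1 IgG library per treatment there is no replicate check.

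2 annotated genes on the opposite strand overlap St3gal4, Gm51705 and 4930581F22Rik, and whether counting used the strand is not given in the sources used here. Only 4930581F22Rik has an entry in the table under its symbol. Its mean was 4.24, 13.7 and 8.97 CPM in RIP and 0.643, 1.25 and 0.474 CPM in RNA in DMSO, LPS and LPS+TM7nox. The means of St3gal4 in RIP were 747, 1451 and 601 CPM. Of the other 9 members, all but St8sia4 are also overlapped by at least 1 gene on the opposite strand, mostly predicted ones. St8sia4 is overlapped by Gm37642 on its own strand. Dcps, the neighbour of St3gal4, had a mean of 5.82 to 6.36 CPM in RIP and 7.98 to 9.56 CPM in RNA.

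The other 9 members were recovered much less. St6gal1, which adds sialic acid to galactose of N-glycans in the ST6Gal linkage and makes ligands of the B cell lectin CD22, followed with log2 RIP over RNA of 2.24 (SE 0.442), 2.17 (SE 0.573) and 2.99 (SE 0.641) in DMSO, LPS and LPS+TM7nox. It rests on few counts, 4 to 14 reads in the RNA libraries of LPS and 1 to 8 in those of LPS+TM7nox, where the ratio of same-numbered libraries ran from 3.63 to 24.5. St6galnac6, an enzyme of ganglioside and disialylated glycan synthesis, stood at 1.05, 1.34 and 1.07, and St3gal1 at 0.98, 0.76 and 0.80. St8sia4 stood at 0.69, 0.68 and 0.86. St3gal2, St3gal3, St3gal5 and St3gal6 lay at or below 0.57, and St6galnac4 was the only member with a negative ratio in all 3 treatments (-0.18, -0.04 and -0.33). The members' median log2 ratio was 0.60, 0.62 and 0.55 in the 3 treatments, against 0.04, -0.06 and -0.09 over all genes. In each, 9 of 10 members were above 0, St3gal4 included, and the share of all genes above 0 was not counted. In DMSO, St3gal3, St3gal5 and St3gal6 ranked 6301st, 6691st and 6858th of the 14311 genes of the fit. Scaled by library size alone, which moved the median of all genes to -0.72, -1.06 and -1.07, the members' medians were -0.17, -0.38 and -0.47 and the ratio of St3gal4 was 5.57, 5.24 and 5.55, so the sign of a small ratio depends on the scaling.

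**Figure D2:**
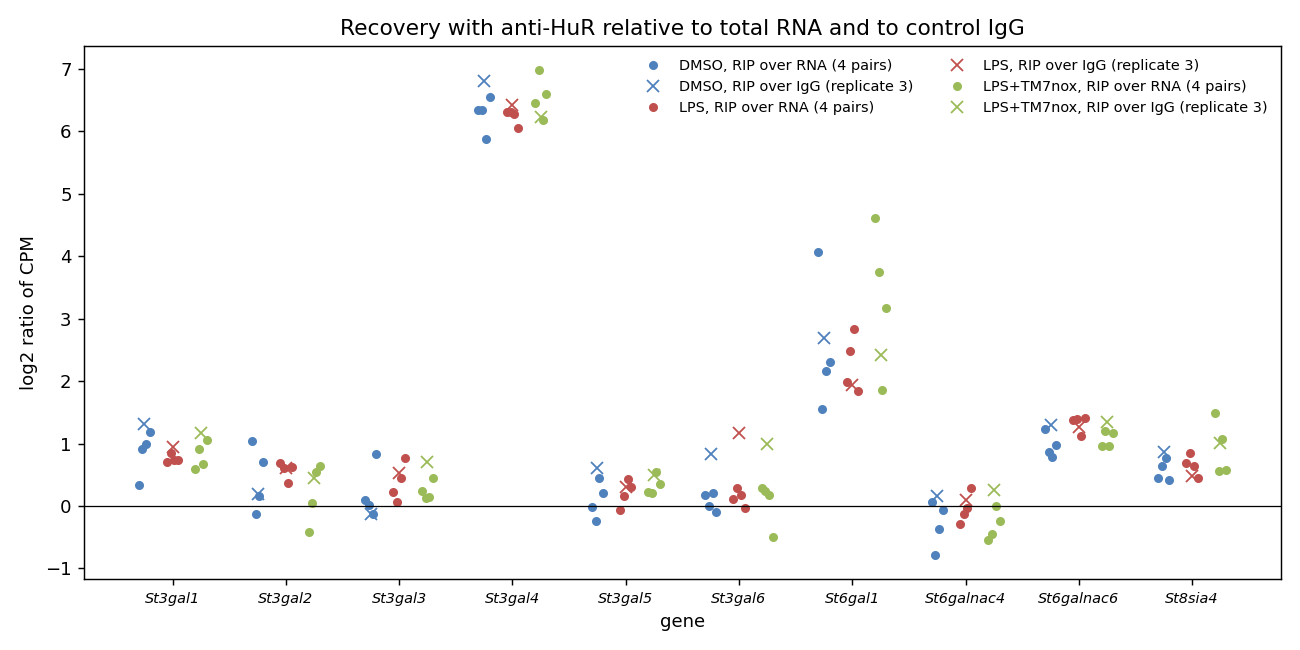
Log2 ratio of CPM in anti-HuR RIP over total RNA for each same-numbered pair of libraries (dots, 4 per treatment) and over control IgG in replicate 3 (crosses), by gene and treatment. St3gal4 lies at 5.87 to 6.98 over RNA, St6gal1 between 1.55 and 4.61, and the other 8 genes between -0.79 and 1.48.

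LPS against DMSO shows how activation of the macrophages changed these genes in total RNA. Of the 10 members, 4 rose and 4 fell, and St6gal1 was also called lower, at a false discovery rate (FDR) under 0.05 in edgeR's quasi-likelihood test with Benjamini-Hochberg adjustment over 12369 genes. St6gal1 passed the filter on low counts in RNA through its DMSO libraries alone, so its call against DMSO was fixed by the filter and is given as values only. The background was wide: 42% of all genes tested were called, 20.2% higher and 21.7% lower. For the members that rose or fell the LPS libraries did not overlap the DMSO libraries. The share of all genes without overlap was not counted. The members' median log2 change was -0.24 and that of all genes -0.04. Scaled by library size alone, 27.7% of all calls were higher, against 48.2%, and the members' split stayed 4 higher and 5 lower, St6gal1 included. Every later FDR is from the same test unless another is named.

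Of the ST3Gal enzymes that act on O-glycans, St3gal1 rose and St3gal2 fell. St3gal1 (chr15:66974724-67048690, minus strand), which caps the core O-glycan of leukocyte surface proteins, stood at 21.4, 16.8, 12.6 and 12.2 CPM in DMSO replicates 1 to 4 and at 61.1, 73.2, 72.7 and 70.2 CPM in LPS. The lowest LPS library lay far above the highest DMSO library, with a log2 change of 2.14 (SE 0.209, FDR 1.99e-06), or 4.40-fold. St3gal2 (chr8:111646367-111699497, plus strand), which also acts on gangliosides, ranged from 6.36 to 11.2 CPM in DMSO and from 3.93 to 4.91 CPM in LPS, a log2 change of -1.01 (SE 0.187, FDR 5.82e-04). In LPS+TM7nox, St3gal1 stood at 49.4, 67.9, 83.4 and 86.2 CPM and St3gal2 at 4.43 to 6.17 CPM, overlapping LPS in both cases. Neither gene passed the test between LPS+TM7nox and LPS (St3gal1 0.05, FDR 0.904, 95% interval -0.33 to 0.44; St3gal2 0.24, FDR 0.467, 95% interval -0.13 to 0.61).

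Of the ST3Gal enzymes that act on galactose of N-glycans and related chains, St3gal4 and St3gal3 rose with LPS and St3gal6 did not pass the test. St3gal4 in RNA stood at 19.8, 23.6, 15.9 and 17.1 CPM in LPS against 7.92 to 12.8 CPM in DMSO, a log2 change of 0.92 (SE 0.188, FDR 0.00119), or 1.90-fold. St3gal3 (chr4:117789348-117992380, minus strand) ranged from 12.1 to 17.0 CPM in LPS and from 7.33 to 8.90 CPM in DMSO, a log2 change of 0.73 (SE 0.150, FDR 0.0013). No library of LPS fell within the DMSO range for either gene. St3gal6 (chr16:58286438-58344780, minus strand) stood at 11.02, 23.7, 25.8 and 21.3 CPM in DMSO and at 16.2, 23.2, 38.4 and 31.6 CPM in LPS. Replicate 1 was the lowest library of either treatment, and the groups overlapped (log2 change 0.37, SE 0.285, FDR 0.337). With the replicate number as a block, its FDR was 0.0341. St3gal6 overlaps Dcbld2, a gene on the opposite strand.

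St3gal5 (chr6:72074329-72131556, plus strand), the GM3 synthase that makes the first ganglioside of most series, fell with LPS. It stood at 129, 152, 103 and 108 CPM in DMSO and at 69.9, 98.4, 55.6 and 57.6 CPM in LPS. Replicate 2 was the highest in both treatments and its LPS library came close to the lowest DMSO library. The log2 change was -0.84 (SE 0.243, FDR 0.0128), or 1.78-fold lower.

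St6gal1 (chr16:23043460-23179103, plus strand) was near the limit of detection in LPS. It stood at 0.636, 3.17, 6.79 and 6.80 CPM in DMSO, the first of these from 3 reads in the shallowest library, and at 0.385, 0.226, 0.137 and 0.437 CPM in LPS. The log2 difference was -3.94 (SE 0.598), and -2.67 in replicates 1 and 2 alone. Its DMSO libraries were higher in replicates 3 and 4 than in replicates 1 and 2. St6galnac4 and St6galnac6, which lie next to each other on chromosome 2 (32476963 to 32489710 and 32489721 to 32510825, plus strand), moved in opposite directions. St6galnac4, which builds disialylated O-glycans, rose from between 20.1 and 30.0 CPM in DMSO to between 38.0 and 50.7 CPM in LPS (log2 change 0.83, SE 0.149, FDR 4.58e-04). St6galnac6 fell from between 13.1 and 18.3 CPM to between 6.24 and 8.67 CPM (log2 change -1.19, SE 0.170, FDR 6.88e-05).

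St8sia4 (chr1:95515404-95595355, minus strand), a polysialic acid synthase, fell with the smallest FDR of the members. It stood at 62.1, 69.1, 77.3 and 73.6 CPM in DMSO and at 15.9, 17.8, 15.6 and 15.3 CPM in LPS. The LPS libraries lay close together, far below those of DMSO, and the log2 change was -2.16 (SE 0.169, FDR 2.19e-07), or 4.47-fold lower. In replicates 1 and 2 alone, which hold the shallow DMSO library, 4 of the 8 calls between LPS and DMSO other than that of St6gal1 passed (St3gal1, St3gal4, St6galnac4 and St8sia4). There the FDR was 0.0986 for St3gal2, 0.0938 for St3gal3, 0.0849 for St3gal5 and 0.0766 for St6galnac6, with directions unchanged.

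LPS+TM7nox against LPS asks what the compound changed in activated cells, and it shares the LPS libraries with the comparison above. In RNA 2 of the 10 members were called, both lower, where 13.8% of 12369 genes were called (7.37% higher and 6.4% lower). St3gal4 stood at 6.90, 7.01, 5.76 and 5.14 CPM in LPS+TM7nox, against 19.8, 23.6, 15.9 and 17.1 CPM in LPS. Its groups did not overlap, the 4 same-numbered pairs all fell, and the log2 change was -1.62 (SE 0.190, FDR 9.25e-05), or 3.07-fold lower. Its FDR was at most 0.0262 over the 15 alternative analyses, with log2 changes of -1.70 to -1.50. These RNA libraries also entered the ratio that chose St3gal4, so the alternatives are not independent of that choice. All 4 LPS+TM7nox libraries also lay below the lowest DMSO library, at 7.92 CPM, and the log2 change against DMSO was -0.70 (SE 0.191, FDR 0.0081). In replicates 1 and 2 alone that difference from DMSO was -0.40 (FDR 0.367).

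St3gal5 was lower in LPS+TM7nox, at 44.5, 58.7, 26.98 and 32.1 CPM, than in LPS in each of the 4 pairs, but the groups overlapped. The log2 change was -0.79 (SE 0.243, FDR 0.0442). This call did not pass without LPS replicate 1 (FDR 0.0798) or 2 (0.151), or without LPS+TM7nox replicate 1 (0.0641), 3 (0.124) or 4 (0.127). St8sia4 stood at 7.72, 14.9, 11.99 and 10.2 CPM, each below every LPS library, with a log2 change of -0.52 (SE 0.165, FDR 0.0505). It passed in 6 of 15 alternatives, with an FDR of 0.0102 without LPS+TM7nox replicate 2, its highest library, 0.0139 in replicates 3 and 4 alone, 0.0179 by DESeq2, and 0.0387 and 0.0441 with scaling by library size and by DESeq2 size factors. St3gal6 was lower in 4 of 4 pairs (log2 -0.66, SE 0.285, FDR 0.158), and passed in replicates 3 and 4 alone (FDR 0.00655) and with no filter on low counts (0.00807). With the replicate number as a block 4 members were called lower, St3gal6 (FDR 0.00292) and St8sia4 (FDR 0.0137) besides St3gal4 and St3gal5, and the calls over all genes went from 1704 to 3091. The 6 members not called under either fit had log2 changes from -0.85 (St6gal1, SE 0.698) to 0.24 (St3gal2, SE 0.187).

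Against DMSO, 8 members other than St6gal1 were called in RNA from LPS+TM7nox cells, 3 higher (St3gal1, St3gal3 and St6galnac4) and 5 lower, where 47.3% of all genes were called (23.7% higher and 23.6% lower). St6gal1, which passed the filter through DMSO alone, held 1 to 8 reads in the LPS+TM7nox libraries, and its log2 difference of -4.79 (SE 0.646) is given without a test. St8sia4 (-2.68, SE 0.173, FDR 4.13e-08) was the lowest of the others, and St3gal1 (2.19, SE 0.210, FDR 1.38e-06) was the highest. St3gal5 stood at -1.63 (SE 0.248, FDR 9.31e-05), below its value with LPS alone. St3gal4 was called above DMSO in LPS and below it in LPS+TM7nox, with the same DMSO libraries in both comparisons. St3gal3, at a log2 of 0.45 (FDR 0.0232) against DMSO, did not pass without DMSO replicate 2 (FDR 0.0528) or 4 (0.0776), or without LPS+TM7nox replicate 4 (0.074). In replicates 1 and 2 alone, St3gal2 (FDR 0.323) and St3gal3 (0.462) did not pass. St3gal3 also did not pass with scaling by library size alone (0.12, FDR 0.565) or with no filter on low counts (0.51, FDR 0.0788).

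**Figure D3:**
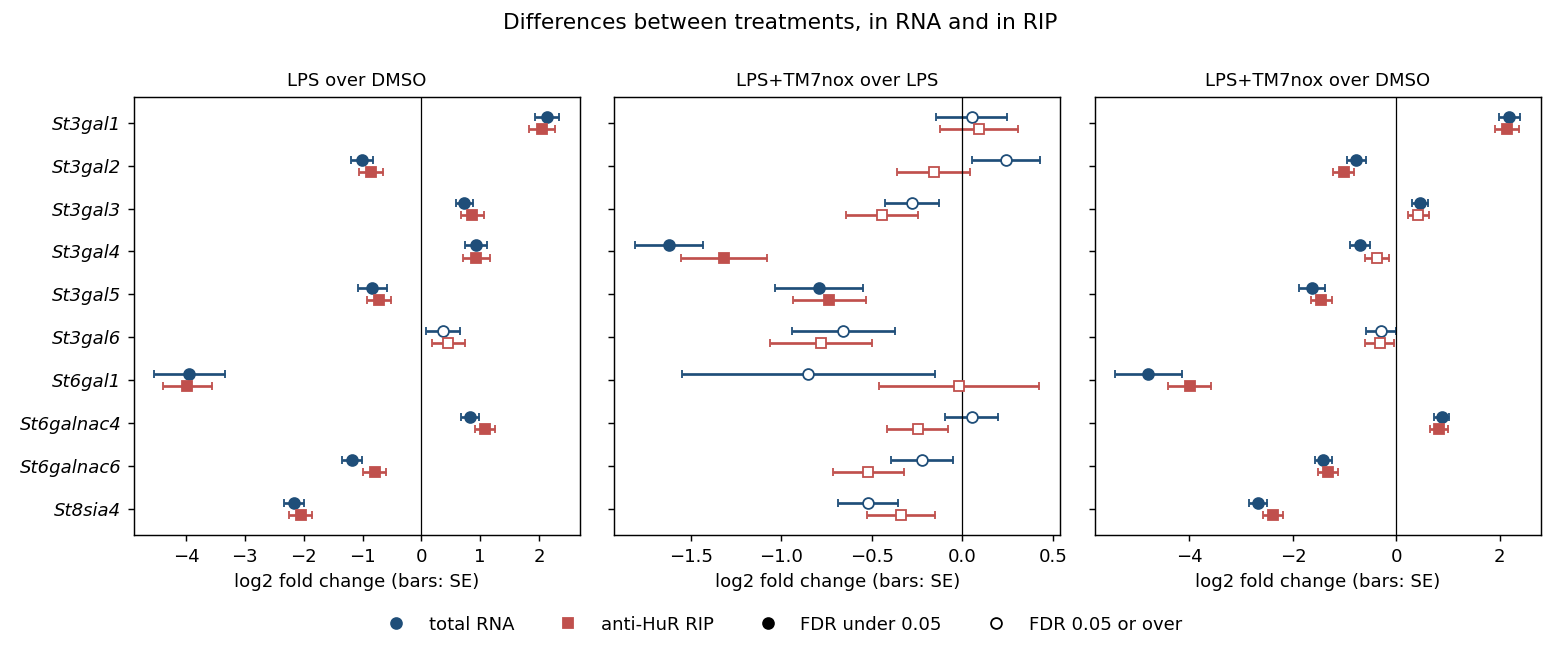
Log2 fold change of each gene between treatments in total RNA (blue circles) and in anti-HuR RIP (red squares), with bars of 1 SE. Filled symbols passed at an FDR under 0.05. The blue and red symbols of a gene lie farthest apart for St6gal1 in LPS+TM7nox against LPS (-0.85 and -0.02) and against DMSO (-4.79 and -3.99). In LPS+TM7nox against LPS, St3gal2 (0.24 and -0.16) and St6galnac4 (0.05 and -0.25) lie on opposite sides of 0. St6galnac6 stands at -1.19 and -0.80 in LPS against DMSO. St6gal1 is filled in RNA against DMSO although it passed the filter through DMSO alone, and in the middle panel St3gal4 is farthest to the left, at -1.62 in RNA and -1.32 in RIP.

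In RIP the treatments were compared with each other within the 12 RIP libraries. LPS against DMSO called 9 of 10 members, 4 higher and 5 lower, where 44.7% of 13614 genes were called (23.5% higher and 21.2% lower). The direction was that in RNA for each of the 9 genes. St3gal4 stood at 735, 759, 750.0 and 744 CPM in DMSO and at 1572, 1859.7, 1235 and 1136 CPM in LPS. The DMSO libraries lay close together and every LPS library lay above them, with a log2 change of 0.94 (SE 0.233, FDR 0.00403). In replicates 3 and 4 alone the difference was 0.58 (FDR 0.0988). St6gal1 fell the most, from 10.7, 9.25, 30.4 and 33.5 CPM in DMSO to between 0.984 and 1.56 CPM in LPS (log2 -3.97, SE 0.414, FDR 1.33e-06). Its DMSO libraries formed a low pair (replicates 1 and 2) and a high pair (replicates 3 and 4), and the log2 change was -2.87 in the first and -4.73 in the second. St3gal1 rose by 2.05 (SE 0.227), St6galnac4 by 1.08 (SE 0.170) and St3gal3 by 0.87 (SE 0.200) on the log2 scale. St8sia4 fell by 2.05 (SE 0.191), St3gal2 by 0.86 (SE 0.197), St6galnac6 by 0.80 (SE 0.193) and St3gal5 by 0.72 (SE 0.201). St3gal6 was higher in 4 of 4 pairs but overlapped (0.46, SE 0.280, FDR 0.195), and its FDR was 0.0107 with the replicate number as a block. Scaled by library size alone, which moved the median of all genes to -0.63 and left 16.8% of all calls higher, against 52.6%, St3gal3 (0.25, FDR 0.341) and St3gal4 (0.30, FDR 0.209) did not pass and St3gal6 was -0.19. St3gal5 (FDR 0.145) and St6galnac6 (0.0528) did not pass in replicates 1 and 2 alone, nor did St3gal3 (0.0613) in replicates 3 and 4 alone.

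LPS+TM7nox against LPS in RIP called St3gal4 and St3gal5, both lower, where 16.2% of genes were called (8.64% higher and 7.61% lower). St3gal4 stood at 604, 884, 419 and 499 CPM, below every LPS library, with a log2 change of -1.32 (SE 0.235, FDR 0.00143), or 2.49-fold lower. It passed in each of the 15 alternative analyses, with an FDR of at most 0.0451, in RIP libraries that also entered the ratio that chose it. St3gal5 stood at 51.8, 68.1, 39.1 and 40.96 CPM against 66.9, 110.5, 74.7 and 70.9 CPM in LPS, lower in 4 of 4 pairs but overlapping (log2 -0.73, SE 0.202, FDR 0.021). St3gal5 did not pass without LPS replicate 2 (FDR 0.077) or without LPS+TM7nox replicate 3 (0.0628) or 4 (0.0694), or in replicates 1 and 2 alone (0.238). St3gal6 (log2 -0.78, FDR 0.07) passed without LPS replicate 1 (FDR 0.0355), without LPS+TM7nox replicate 3 (0.0295), by DESeq2 (0.0454) and with no filter on low counts (0.00485). With the replicate number as a block 5 members were lower: St3gal3 (FDR 0.0129), St3gal6 (7.90e-04) and St6galnac6 (0.0057) were added, and the calls over all genes went from 2212 to 4577.

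Against DMSO, RIP from LPS+TM7nox cells called 7 members, 2 higher (St3gal1 and St6galnac4) and 5 lower, where 48.1% of genes were called (25.1% higher and 23.1% lower). St3gal4 was not among them: its LPS+TM7nox libraries ranged from 419 to 884 CPM around the 735 to 759 CPM of DMSO (log2 -0.38, SE 0.232, FDR 0.189). This difference passed without LPS+TM7nox replicate 2 (FDR 0.0315), in the replicate block (0.0253) and in replicates 3 and 4 alone (-0.78, FDR 0.0359). It passed in 4 of 15 alternatives, with values from -1.04 to -0.08 and an FDR of up to 0.863. St3gal3 (log2 0.43, FDR 0.091) passed without DMSO replicate 4 (FDR 0.0256) and in the replicate block (0.00867). Scaled by library size alone, St3gal4 was -1.04 (FDR 3.92e-04), St3gal6 was -0.96 (FDR 0.0107, against -0.32 and 0.36), St3gal3 was -0.22 and St6galnac4 did not pass (0.18, FDR 0.39). St6galnac4 also did not pass in replicates 1 and 2 alone (FDR 0.0864).

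Whether recovery with HuR differed between treatments was tested as an interaction of assay and treatment in 1 fit of the 24 libraries. It was called for 0 of the 9 members tested in either comparison by edgeR, where 0.0419% of 14311 genes were called for LPS (0.014% higher and 0.028% lower) and 0.00699% for TM7nox. At an unadjusted p under 0.05, 0 of the 9 passed in either comparison, against 7.27% and 5.39% of all genes, and DESeq2 and the replicate block also called 0, where they called 62 and 50 of all genes for LPS and 3 and 2 for TM7nox. The log2 differences ran from -0.22 (St3gal1) to 0.29 (St6galnac6) for LPS and from -0.37 (St3gal2) to 0.83 (St6gal1) for TM7nox. Leaving out St6gal1, whose SE reached 0.959, the 95% intervals lay within -0.91 to 0.87 for LPS and within -1.01 to 0.78 for TM7nox. These intervals come from the fit without the replicate block. For St3gal6, which had the widest of them, the log2 ratios of same-numbered libraries were 0.11, 0.28, 0.18 and -0.04 in LPS and 0.29, 0.24, 0.18 and -0.50 in LPS+TM7nox, and only replicate 4 stood apart in the latter. For St3gal4 the difference was -0.09 (95% interval -0.68 to 0.49) with LPS and 0.32 (95% interval -0.27 to 0.91) with TM7nox, given without a test.

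The other genes of the pathway give the surroundings of these changes in total RNA. Of 14 genes that make, carry or remove sialic acid 10 were tested, and with LPS 0 rose and 7 fell, where 42% of all genes tested were called (20.2% higher and 21.7% lower), with a median log2 change of -0.71 against -0.04 over all genes. The largest fall was that of Slc17a5 (-2.03, SE 0.195, FDR 1.64e-06), which exports free sialic acid from lysosomes. Of 19 genes that build the chains to which sialic acid is added 17 were tested, and 4 rose and 5 fell (median -0.11). Fut7 was also called lower, but held at most 5 reads in each LPS library and passed the filter through DMSO alone, so no test is given for it. B4galt5, a galactosyltransferase that makes lactosylceramide, the substrate of St3gal5, rose by 2.07 (SE 0.193, FDR 1.24e-06) on the log2 scale. Of 9 siglec genes 4 were tested, 2 rose and 0 fell, with the largest rise in Siglec1 (2.72, SE 0.361, FDR 3.45e-05), which encodes the macrophage lectin sialoadhesin.

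For TM7nox the same lists were counted in RNA, against LPS, where 13.8% of all genes were called (7.37% higher and 6.4% lower). In the supply and removal list 1 of 10 rose (Slc17a5, 0.88, FDR 0.00693) and 1 fell (Neu1, a lysosomal sialidase, -0.50, FDR 0.017). In the chain-building list 3 of 17 rose, led by Mgat4b (1.34, FDR 2.16e-05), a branching enzyme of N-glycans, and 1 fell (B4galt6, -0.54, FDR 0.0235). Of the siglecs 0 of 4 rose and 2 fell, led by Siglece (-1.63, SE 0.342, FDR 0.0057), an inhibitory receptor. The medians were 0.21, 0.09 and -0.89 against -0.00 over all genes and -0.40 over the 10 members.

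**Figure D4:**
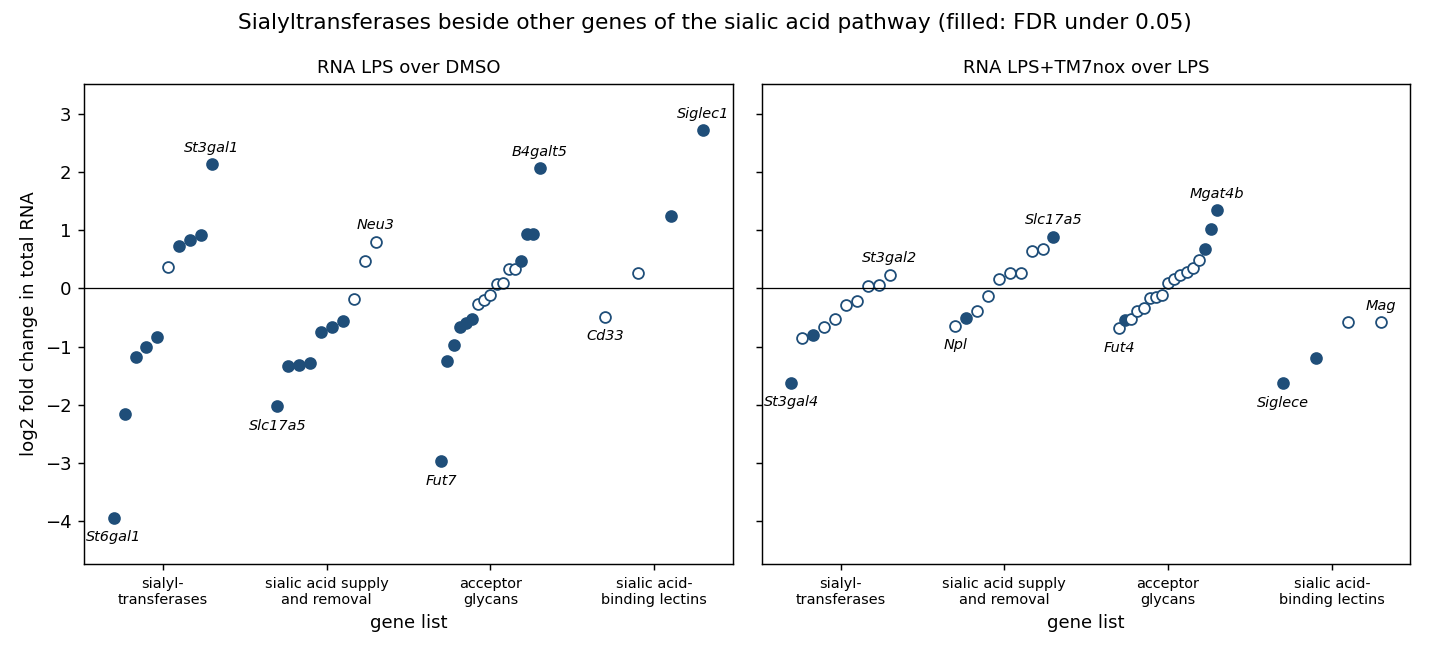
Log2 fold change in total RNA of the genes tested in 4 lists (sialyltransferases, sialic acid supply and removal, acceptor glycans, sialic acid-binding lectins), with LPS over DMSO on the left and LPS+TM7nox over LPS on the right. Each point is 1 gene, filled at an FDR under 0.05, and the highest and lowest of each list are named. St6gal1 at -3.94 is the lowest point on the left, and St3gal4 at -1.62 and Siglece at -1.63 are the lowest on the right. St6gal1 and Fut7 are filled on the left although they passed the filter on low counts through DMSO alone.

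The genes whose pattern was most like that of St3gal4 were Dusp7 (Pearson r 0.996), Trps1 (0.991), Tcf4 (0.990), Rab31 (0.990) and Psme3 (0.989). The measure was the correlation of log2 CPM over the 24 RNA and RIP libraries, among 11238 protein-coding genes that are not members. Their log2 RIP over RNA in DMSO was 4.61, 2.90, 3.82, 2.98 and 2.22, against 6.35 for St3gal4. The points share assay and treatment, so the correlation is a description with no test. The other members correlated with St3gal4 at -0.13 (St6galnac4) to 0.70 (St6galnac6).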

How the data were processed

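The authors deposited 1 table of raw counts, whole numbers of reads per gene for 55483 genes and 27 libraries, not normalized. The submitters' processing notes name FastQC 0.11.9, STAR, HTSeq, DESeq2 and GRCm39. Which options the counting used, and whether it used the strand, is not given in those notes. Libraries were made with a stranded kit from 7 ng of RNA, per the labels' protocols. PCR copies count as reads. The intervals of RIP over IgG cover counting error only, and the other intervals come from the SE of the fits.

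Groups and replicate numbers came from the labels. The counts went into edgeR 4.0.16 (R 4.3.3) with TMM scaling, filterByExpr with a minimum count of 10, two-sided quasi-likelihood F tests, Benjamini-Hochberg adjustment over all genes tested, and calls at an FDR under 0.05. The 12 RNA and the 12 RIP libraries were fitted separately, with treatment as the term. RIP over RNA and its changes came from 1 fit of 24 libraries. DESeq2 1.42.0, other scalings, no filter, a replicate block, single libraries left out and pairs of replicate numbers were alternatives. The code was tested on simulated data. CPM use 1 TMM scale, and likeness used log2 CPM with a prior count of 2. TMM makes RIP over RNA relative to the typical gene.

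Replicate numbers pair the samples: deviations from group means of same-numbered libraries correlated at 0.194 to 0.449 within RNA, 0.262 to 0.543 within RIP and 0.210 to 0.402 between RNA and RIP, 12 of 12 pairs over 0.1 in each. The main tests and their SEs leave this pairing out, and only the replicate block takes it in. No 2 replicates agreed within sampling noise (chi-square per gene at least 38.0). The members, the pathway lists and the tests were chosen with earlier results of these data known. Rules named all 10 members, the called gene with the largest change per list and direction, and the 5 genes most like St3gal4. Where a symbol had 2 entries, the lower Ensembl number was used. Gene positions and 3′ UTRs came from GENCODE M39 on GRCm39, matched by Ensembl number.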

Additional observations from a re-analysis of the deposited data

Results flagged for a closer look

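Among 60 groups of 4 libraries (10 genes in 6 groups), 2 held a library far from the other 3. St3gal2 in RIP from LPS cells stood at 7.42 CPM in replicate 4, with the next highest library at 6.34 CPM. St3gal3 in RIP from LPS+TM7nox cells stood at 17.6 CPM in replicate 4, with the next highest at 12.5 CPM. Chance alone flags about 1 group in 20. Without these libraries no call of either gene between LPS+TM7nox and LPS was gained or lost.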

How the results depend on the processing

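The calls of St3gal4 between LPS+TM7nox and LPS held in all alternatives, in RNA and in RIP. The members called in RNA between LPS+TM7nox and LPS (2) numbered 4 with the replicate block, 1 in replicates 1 and 2, 5 in replicates 3 and 4, and 1 to 3 with single libraries left out. In RIP (2) they numbered 5 with the block, 1 in replicates 1 and 2, and 1 to 3 with single libraries left out. Between LPS and DMSO in RNA (9, or 8 without St6gal1, which passed the filter through DMSO alone), replicates 1 and 2 called 4. Beyond the calls printed in the report and that of St3gal6 between LPS and DMSO, the block changed no other call. Values near 0 turned sign between LPS+TM7nox and LPS. In replicates 1 and 2 of RNA, St3gal1 was -0.20 and St6galnac4 -0.022; in replicates 3 and 4 St3gal2 was -0.016. In RIP, St3gal1 was -0.23 and St6gal1 0.10 in replicates 1 and 2, St3gal2 0.050 in replicates 3 and 4, and St6gal1 0.0098 with DESeq2. With single libraries left out, St3gal1 ranged from -0.045 to 0.19 in RNA and -0.13 to 0.29 in RIP, St6galnac4 in RNA from -0.047 to 0.12, and St6gal1 in RIP from -0.21 to 0.17.

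Scaling by library size alone moved the median of all genes by its construction, turned several RIP values and ended the RNA call of St3gal3 between LPS+TM7nox and DMSO. Against DMSO, St3gal6 in RIP with LPS was -0.19 and St3gal3 in RIP with LPS+TM7nox was -0.22. RIP over RNA of the members had medians of -0.17, -0.38 and -0.47 in DMSO, LPS and LPS+TM7nox (0.80 and 0.78 in the last 2 with DESeq2 size factors). St8sia4 was -0.093, -0.34 and -0.10. St3gal2 was -0.24, -0.42 and -0.82, St3gal3 -0.43, -0.63 and -0.77, St3gal5 -0.59, -0.82 and -0.74, St3gal6 -0.60, -0.87 and -0.95, and St3gal1 -0.24 in LPS and -0.20 in LPS+TM7nox. St3gal4 was 5.57, 5.24 and 5.55 over RNA and 5.85, 5.21 and 5.11 over IgG, and with DESeq2 size factors 7.01 and 6.57 over IgG in DMSO and LPS. The members with RIP above IgG numbered 4, 3 and 4, against 9, 10 and 10, where the median log2 ratio of all genes was -0.27, -0.18 and -0.17. Single RIP libraries of St3gal2, St3gal3, St3gal6 and St6galnac4 were not above IgG, down to 0.733 of it. Calls against DMSO that were higher made up 29.0% of all genes called in RNA and 18.2% in RIP for LPS+TM7nox, against 50.02% and 52.1%. For St6gal1, 1 to 14 reads in each RNA library with LPS limit the precision, as do 3 in RNA DMSO replicate 1.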
